A study of Mus musculus with 20 samples.

Results

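The 10 genes described here mark astrocytes and radial glia: Gfap, Aqp4, S100b, Aldh1l1, Slc1a2, Slc1a3, Gja1, Aldoc, Fabp7 and Gpr37l1. They were taken by gene symbol from the 37561 genes that every deposited table lists, and all 10 were found and had enough reads to be tested. The cells were mouse ESD3 embryonic stem cells of the strain 129s2/SvPas, which were kept on mouse embryo fibroblast feeder cells and grown as spherical neural masses (SNMs) toward dopaminergic neurons. The control line had been infected with a retrovirus carrying an shRNA (a short hairpin RNA that lowers its target) against luciferase, and the HPRT knockdown line with one carrying an shRNA against HPRT, the purine salvage enzyme lost in Lesch-Nyhan disease, so both lines shared infection and a hairpin. RNA from replicate cultures was pooled for each of 10 collection days between day 0 and day 14, and 1 library was sequenced for each line and day, 20 libraries in all. The comparison asked how the loss of HPRT changed gene expression while the cells differentiated.

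Astrocytes are the glial cells that take up glutamate and potassium around synapses, pass water and metabolites between blood vessels and neurons, and are joined by gap junctions. Radial glia are the neural stem cells of the developing brain, and they share several of these genes with astrocytes, above all Slc1a3, Fabp7 and Aldoc. In neural stem cell cultures, neurons are usually made before glia, and signals through the JAK-STAT, BMP and Notch pathways and the NFI factors are known to act on astrocyte genes.

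Each deposited table gives the difference between 2 libraries, so the quantity tested was the log2 ratio of the HPRT knockdown over the control library of the same day. Its mean over 9 days was tested against 0 with limma, a linear model fitted to the 13619 genes whose typical log2 level was at least 4, and the p-values were adjusted by the Benjamini-Hochberg method. Day 6 was kept out of the tests, as the study did for its pathway analysis, and its values are given apart. A p-value here measures the spread between days of 1 control and 1 knockdown line, not between separately made lines. Levels are given as normalized reads, the reads of a gene divided by the size factor of its library, and these factors ran from 0.794 to 1.51. For Gfap and Fabp7 the number of reads could not be worked out, and their levels are given as multiples of the control library of day 0. Hprt itself, the targeted gene, had 560.7 to 932 normalized reads in the control libraries of the 9 days and 20.7 to 149 in the knockdown libraries. It was 16.0-fold lower in the knockdown line (mean log2 ratio −4.00 ± 0.27 (SE, n = 9 days), limma adjusted p = 1.4e-05), and its log2 ratio on day 6 was −3.42.

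Of the 10 genes, 8 differed between the lines (limma adjusted p under 0.05), where 52.5 percent of all genes tested did. Gfap, Aqp4, S100b, Aldh1l1, Slc1a2, Slc1a3 and Aldoc were higher in the knockdown line and Gja1 was lower. The share of all genes that was higher was 26.2 percent, and the share that was lower was 26.3 percent. The median of the mean log2 ratios was 1.27 over the 10 genes and 0.0056 over all genes tested. Fabp7 and Gpr37l1 did not pass the test. In bulk RNA of this kind, more cells of a type and more RNA per cell cannot be told apart.

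**Figure D1:**
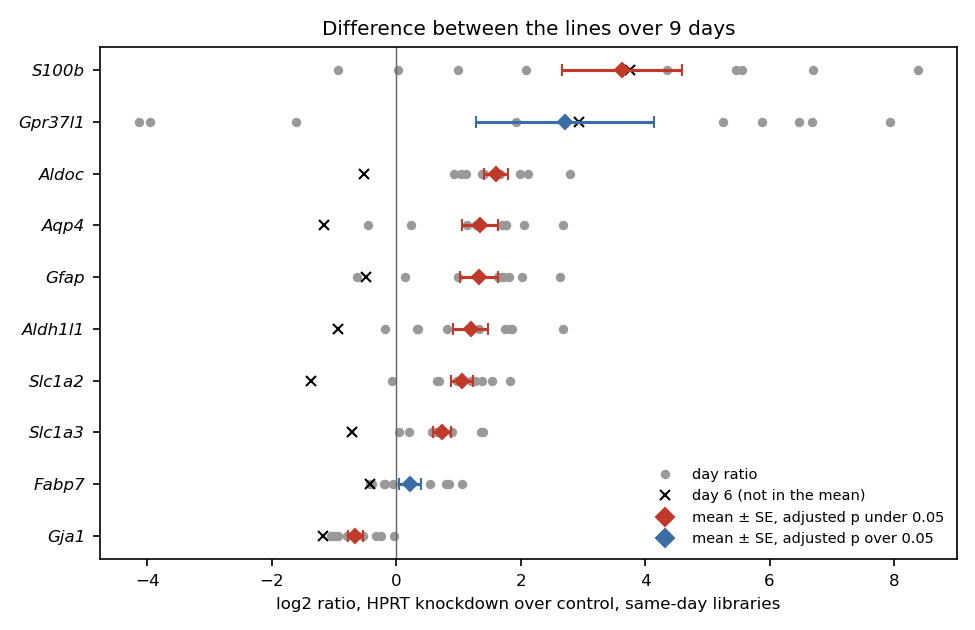
The log2 ratio of the HPRT knockdown over the control library on each of 9 days (grey points) and on day 6 (cross), with the mean over the 9 days and its SE (diamond), for the 10 genes in order of the mean. S100b has the highest mean, 3.63, Gja1 the lowest, −0.66, and the crosses of 7 genes lie on the other side of 0 from their means.

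The promoters of Gfap, Slc1a3 and Aldoc are shown because these 3 genes differed between the lines and hold the core motif of STAT factors, which carry the JAK-STAT signal to astrocyte genes. Promoters from RefSeq (build GRCm38.p6) were searched for 9 of the 10 genes, and no promoter of Aqp4 was searched. They were 10 in all since Aldoc has 2, each with 250 bases before and 50 after the annotated start of transcription. Bases further upstream were not searched. The sequences run 5′ to 3′ along the strand of the gene, and capitals mark each match to TTCNNNGAA, which reads the same on both strands. Gfap lies on the minus strand at chr11:102897151-102897450, Slc1a3 on the minus strand at chr15:8710758-8711057, and the downstream promoter of Aldoc on the plus strand at chr11:78323948-78324247.
Gfap: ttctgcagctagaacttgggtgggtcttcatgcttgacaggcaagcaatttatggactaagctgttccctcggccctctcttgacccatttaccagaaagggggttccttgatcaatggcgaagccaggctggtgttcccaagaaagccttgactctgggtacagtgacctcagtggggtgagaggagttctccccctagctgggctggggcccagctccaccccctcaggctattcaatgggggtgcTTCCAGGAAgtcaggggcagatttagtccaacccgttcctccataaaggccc
Slc1a3: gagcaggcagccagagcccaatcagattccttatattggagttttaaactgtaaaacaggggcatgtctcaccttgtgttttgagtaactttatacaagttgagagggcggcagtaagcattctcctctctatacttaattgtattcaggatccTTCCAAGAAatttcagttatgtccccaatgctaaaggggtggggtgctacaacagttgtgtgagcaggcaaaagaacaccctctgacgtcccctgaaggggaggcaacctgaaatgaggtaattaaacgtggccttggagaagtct
Aldoc: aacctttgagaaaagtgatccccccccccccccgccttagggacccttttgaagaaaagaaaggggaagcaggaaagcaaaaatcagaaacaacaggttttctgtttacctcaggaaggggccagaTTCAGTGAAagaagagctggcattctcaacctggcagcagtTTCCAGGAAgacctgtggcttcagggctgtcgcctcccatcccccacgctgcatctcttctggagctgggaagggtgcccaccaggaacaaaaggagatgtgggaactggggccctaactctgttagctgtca
The first base of the match lay 2 bases before the annotated start of transcription in Gfap and 96 bases before it in Slc1a3. The 2 matches of Aldoc began 124 and 83 bases before the annotated start. None of the other promoters searched held the motif, and 8.3 percent of 32851 RefSeq promoters of the same length did. The palindromic NFI motif (TTGGC and GCCAA with 5 bases between them) was in none of the 10 promoters, on either strand, and in 0.0365 percent of all. A match in these letters is a description of the sequence and not a site of binding.

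Gfap encodes the intermediate filament protein by which astrocytes are usually recognised. In the control line it ran from 0.43 times its day 0 level on day 8 to 4.68 times on day 1, with a median of 1.20 times. In the knockdown line it ran from 0.85 times on day 8 to 4.74 times on day 3, with a median of 3.12 times the control day 0 level. The ranges overlapped, yet the knockdown library was the higher of the pair on 8 of 9 days. The mean log2 ratio was 1.34 ± 0.31 (SE, n = 9 days), 2.52-fold higher in the knockdown line (limma adjusted p = 0.0049). The exception was day 1, when the control line was at its highest and the log2 ratio was −0.64. Gfap lies at chr11:102748650-102762226 on the minus strand (NCBIM37), and 6.11 percent of the 50-base words in its exons recur elsewhere in the genome, the highest share among the 10 genes, and a read from those words could not be placed in 1 position.

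Aqp4, on chromosome 18, encodes the water channel of astrocyte endfeet. It had 317.5 to 2388 normalized reads in the control line (median 834) and 686 to 4007 in the knockdown line (median 2698). Its course was like that of Gfap: the control line was highest on day 1 and lowest on day 8, the knockdown line was highest on day 3 and lowest on day 8, and day 1 alone had a log2 ratio below 0 (−0.45). The mean log2 ratio was 1.35 ± 0.29 (SE, n = 9 days), 2.55-fold higher in the knockdown line (limma adjusted p = 0.0034).

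The glutamate transporters of astrocytes were both higher in the knockdown line. Slc1a2, which encodes GLT-1, had 887 to 1870 normalized reads in the control line (median 1556) and 1135 to 4519 in the knockdown line (median 2982). The knockdown line was higher on 8 of 9 days, and on day 8 the lines were at 1212 and 1135 normalized reads. Slc1a3, which encodes GLAST and is also a marker of radial glia, had 2121 to 4148 in the control line (median 3645) and 3820 to 7806 in the knockdown line (median 5368). Its log2 ratio was above 0 on all 9 days, but by day 14 it was 0.043, and on the scale of normalized reads, where all libraries are set against each other and not only the 2 of a table, that day had 4127 in the control and 4071 in the knockdown library. The mean log2 ratios were 1.05 ± 0.18 for Slc1a2 (limma adjusted p = 0.00096) and 0.73 ± 0.14 for Slc1a3 (limma adjusted p = 0.0022), which correspond to 2.07-fold and 1.66-fold. Slc1a2 lies at chr2:102498816-102630941 on the plus strand and Slc1a3 at chr15:8584124-8660764 on the minus strand (NCBIM37).

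Aldoc and Aldh1l1 encode metabolic enzymes of astrocytes, a brain form of the glycolytic enzyme aldolase and an enzyme of folate metabolism. Aldoc had 372 to 2785 normalized reads in the control line (median 860.4) and 1453 to 5462 in the knockdown line (median 3131). It was higher in the knockdown line on all 9 days, with log2 ratios from 0.92 on day 1 to 2.79 on day 10. The mean log2 ratio of Aldoc was 1.60 ± 0.19 (SE, n = 9 days), 3.04-fold higher (limma adjusted p = 0.00015), the lowest p of the 10 genes. Aldh1l1 had 527 to 1287 normalized reads in the control line (median 801) and 864 to 3485 in the knockdown line (median 1997). Its mean log2 ratio was 1.20 ± 0.28 (SE, n = 9 days), 2.29-fold higher (limma adjusted p = 0.0055). The difference was uneven over the course: the log2 ratio of Aldh1l1 lay between 1.74 and 2.68 up to day 3, between −0.18 and 0.36 at days 4, 8 and 10, and at 1.33 by day 12. Aldoc lies at chr11:78136470-78141283 and Aldh1l1 at chr6:90436421-90550197, both on the plus strand (NCBIM37).

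Slc1a3 and Aldoc were the members whose log2 ratio was above 0 on all 9 days, 2 of 10, where 14.1 percent of all genes tested had this pattern. Gja1 was the member below 0 on all 9 days, where 15.2 percent of all genes did. For none of the 10 genes were the levels of the lines apart altogether, every library of one line above every library of the other, and 4.70 percent of all genes tested showed this.

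Gja1, which encodes connexin 43, the main gap junction protein of astrocytes and also a junction protein of neural progenitors and embryonic stem cells, went the other way. It had 2408 to 5301 normalized reads in the control line (median 4089) and 1136 to 4155 in the knockdown line (median 2384). The log2 ratio was below 0 on all 9 days, from −1.05 on day 12 to −0.033 on day 0, and day 0 turns over on the scale of normalized reads, with 4089 in the control and 4155 in the knockdown library. The mean log2 ratio was −0.66 ± 0.12 (SE, n = 9 days), 1.58-fold lower in the knockdown line (limma adjusted p = 0.0018). Gja1 lies at chr10:56097106-56110225 on the plus strand (NCBIM37).

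Fabp7, the brain lipid-binding protein of radial glia, had no called difference. In the control line it ran from 0.62 to 1.18 times its day 0 level (median 0.81) and in the knockdown line from 0.61 to 1.35 times (median 1.02). The knockdown line was higher on 4 of 9 days, and the mean log2 ratio was 0.22 ± 0.18 (SE, n = 9 days; limma adjusted p = 0.325). These values cover a narrow range: the highest library was 1.90 times the lowest in the control line and 2.19 times in the knockdown line. Fabp7 lies at chr10:57504687-57508256 on the plus strand (NCBIM37).

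**Figure D2:**
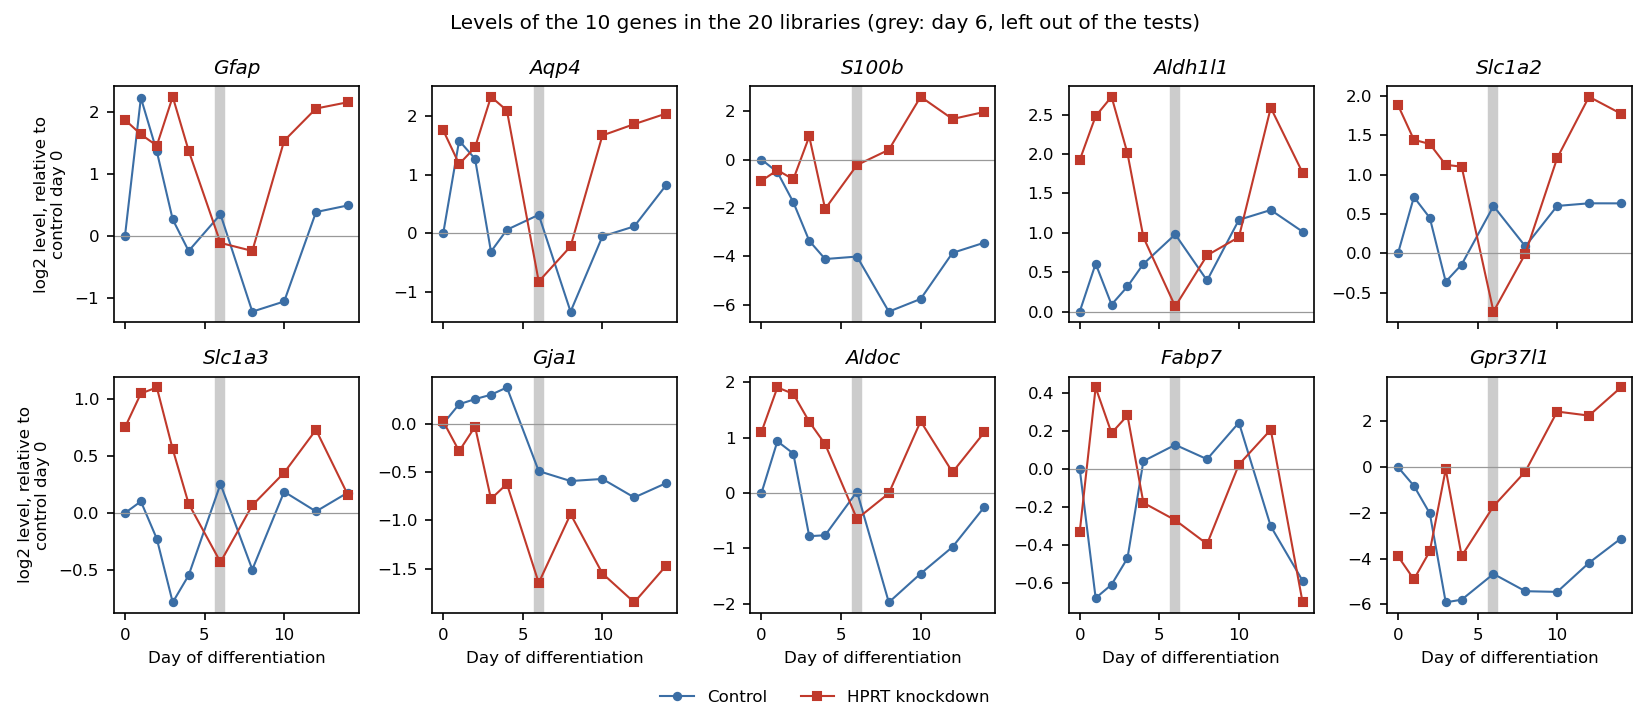
Log2 level of each of the 10 genes on each day in the control line (blue circles) and the HPRT knockdown line (red squares), relative to the control library of day 0, with 1 library per point and day 6 shaded. The knockdown line lies above the control line on most days for the 7 genes called higher and for Gpr37l1 and below it for Gja1, and the lines of S100b and Gpr37l1 part widely after day 2.

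S100b and Gpr37l1 changed most over the course. S100b encodes a calcium-binding protein of mature astrocytes that cells of the oligodendrocyte lineage also make, and Gpr37l1 encodes an orphan receptor of glial cells. In the control line S100b went from 589.7 normalized reads at the start to a low of 7.59 on day 8 and stood at 54.6 at the end. That day 8 library held 7 reads of it, with a 95 percent Poisson interval of 2.81 to 14.4 that covers counting error alone. In the knockdown line S100b started at 321 normalized reads, was lowest on day 4 with 143.5 and highest on day 10 with 3554, and ended at 2301. The knockdown line was thus lower on day 0, level on day 1, when the log2 ratio was 0.034, and higher from day 2 on. The mean log2 ratio was 3.63 ± 0.96 (SE, n = 9 days), 12.3-fold higher in the knockdown line (limma adjusted p = 0.0102). The size rested on single days, with 8.17-fold without day 10 and 18.3-fold without day 0, and the gene was called both times. S100b lies at chr10:75716598-75723904 on the plus strand (NCBIM37).

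Gpr37l1 crossed over in the same way. The control line had 280.3 normalized reads at the start, a low of 4.64 on day 3 and 32.1 at the end. The knockdown line had 18.8 at the start, a low of 9.31 on day 1 and 3140 at the end. Counts were low on the control side, with 5 to 11 reads in each library from day 3 to day 10 and 37 reads on day 14. They were also low in the knockdown libraries of days 0, 1, 2 and 4, with 25, 9, 18 and 15 reads. The control median of 15.4 normalized reads lay under the 16 that the log2 level of 4 stands for. The median of the knockdown line was 245. The knockdown line was lower on days 0 to 2 and higher on the other 6 days, and the mean log2 ratio of 2.71 ± 1.43 (SE, n = 9 days) was not called (limma adjusted p = 0.135) and moved from 2.06 without day 10 to 3.57 without day 1. Gpr37l1 lies at chr1:137056811-137064258 on the minus strand (NCBIM37).

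The change of the log2 ratio with the day was tested as its slope. S100b rose by 0.52 ± 0.12 log2 units per day (SE, limma adjusted p = 0.0263) and Gpr37l1 by 0.78 ± 0.17 (SE, limma adjusted p = 0.0225), and none of the other 8 genes was called. Of all genes tested, 14.0 percent were called, 7.44 percent rising and 6.61 percent falling. Both calls rested on single days: S100b was not called without day 0 (adjusted p = 0.0712), day 1 (0.0589) or day 12 (0.0574), nor Gpr37l1 without day 0 (0.0617) or day 12 (0.0595), all by limma.

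Within the lines, few of the 10 genes had a trend over the days. In the control line Aldh1l1 rose by 0.076 ± 0.018 log2 units per day (SE, limma adjusted p = 0.0085) and Gja1 fell by 0.085 ± 0.016 (limma adjusted p = 0.0035). Those were 2 of 10 genes, where 43.6 percent of all genes had a trend in the control line, 19.7 percent rising and 23.9 percent falling. The slopes of S100b, −0.28 ± 0.11, and Gpr37l1, −0.27 ± 0.14, were not called in the control line (limma adjusted p = 0.0594 and 0.153), though that of S100b was under 4 of 14 alternatives, among them without day 14 (limma adjusted p = 0.0245). In the knockdown line Gpr37l1 rose by 0.575 ± 0.084 (limma adjusted p = 0.0096), S100b rose by 0.23 ± 0.064 (limma adjusted p = 0.0482) and Gja1 fell by 0.13 ± 0.018 (limma adjusted p = 0.0095). That made 3 of 10, where 13.1 percent of all genes were called in the knockdown line, 7.61 percent rising and 5.51 percent falling. The call of Gja1 in both lines and that of Aldh1l1 in the control line held whichever day was left out. The call of Gpr37l1 was lost without day 14 (limma adjusted p = 0.0525), and that of S100b without day 0, 1, 2, 8, 10, 12 or 14 (limma adjusted p from 0.0616 to 0.154).

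S100b and Gpr37l1 moved beside markers of the oligodendrocyte lineage. All 11 such markers were tested and 5 were higher in the knockdown line, where 26.2 percent of all genes tested were higher. Among the 5 was Olig2, a transcription factor of the lineage (mean log2 ratio 3.02 ± 0.43, limma adjusted p = 0.00043). Mag, a myelin protein gene, had the next highest mean but was not called (2.79 ± 1.38, limma adjusted p = 0.113), and the lowest means were those of the myelin genes Mobp (0.18 ± 0.81) and Mog (0.41 ± 0.57), which were not called either (limma adjusted p = 0.867 and 0.567). The median of the 11 means was 1.86. The ratio was called rising with the day in 6 of the 11, where 7.44 percent of all genes tested were. Sox10, taken here as a defining marker of the lineage, had a slope of 0.59 ± 0.090 (limma adjusted p = 0.0081). Its mean log2 ratio was not called (1.86 ± 0.99, limma adjusted p = 0.139), and the knockdown line was the lower on 4 of 9 days. Sox10 had 1803 normalized reads at the start and 133 at the end in the control line, against 536 and 12026 in the knockdown line, and in no library was it at 0. The reads of the 6 markers whose reads could be worked out summed to 2446 to 7013 normalized reads in the control line and 5840 to 41832 in the knockdown line. What these cells contribute to the levels of S100b and Gpr37l1 was not tested.

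**Figure D3:**
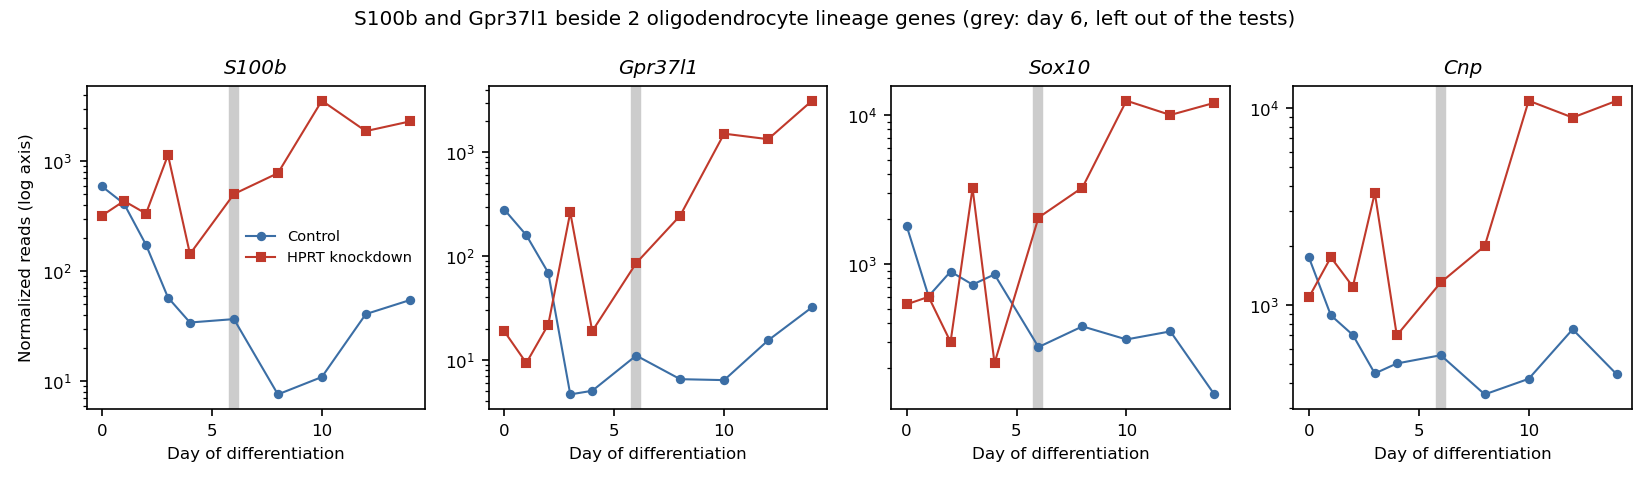
Normalized reads (log axis) of S100b, Gpr37l1 and the oligodendrocyte lineage genes Sox10 and Cnp by day in the control line (blue circles) and the HPRT knockdown line (red squares), 1 library per point, day 6 shaded. In the knockdown line all 4 genes peak on day 3 between lower values on days 2 and 4 and are higher on days 10 to 14 than on any earlier day.

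The knockdown library of day 3 stood out for the same genes. S100b had 1140 normalized reads in it, between 334 on day 2 and 143.5 on day 4, and Gpr37l1 263 between 21.9 and 18.9. Sox10 had 3222 between 300 and 217. The log2 ratio of day 3 was above those of days 2 and 4 for 7 of the 10 members and for 11 of 11 oligodendrocyte lineage markers, against 32.3 percent of all genes tested. Slc1a2, Slc1a3 and Aldoc were among the 7, but their knockdown levels did not peak on day 3. Knockdown normalized reads on days 2 and 3 were 2982 and 2482 for Slc1a2, 7806 and 5368 for Slc1a3 and 5041 and 3557 for Aldoc. In the control line Slc1a2 and Slc1a3 were at their lowest on day 3, and Aldoc fell from 2390 on day 2 to 850 on day 3. Without day 3, the same 8 members differed between the lines.

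Day 8 was the lowest of the 9 days in the knockdown line for 6 of the members, namely Gfap, Aqp4, Aldh1l1, Slc1a2, Slc1a3 and Aldoc, and in the control line for 4, Gfap, Aqp4, S100b and Aldoc. The 8 genes with known reads summed to 7906 normalized reads on day 8 in the control line and to 11120 in the knockdown line, the lowest sums of their line among the 9 days, against medians of 11367 and 22643; on day 6 the sums were 12550 and 7344. Both lines were thus low on that day, and the median log2 ratio of the members on day 8 was 0.79.

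On day 6 most of the members had a ratio below 0. The median log2 ratio of the 10 genes was −0.62 on that day, where it lay between 0.36 and 1.88 on the other days. For 7 genes the ratio lay on the other side of 0 from their mean over 9 days, where 53.7 percent of all genes tested did, so this count alone sets the members little apart. The ratios were −0.49 for Gfap, −1.17 for Aqp4, −0.94 for Aldh1l1, −1.37 for Slc1a2, −0.71 for Slc1a3, −0.52 for Aldoc and −0.43 for Fabp7. S100b, Gpr37l1 and Gja1 kept their sign, with log2 ratios of 3.75, 2.93 and −1.19. The pluripotency gene Pou5f1, which was lower in the knockdown line on all 9 other days, had a log2 ratio of 2.13 on day 6, with 1133 normalized reads in the control library and 5047 in the knockdown library. The 6 pluripotency markers were split on that day, 4 above 0 and 2 below, with a median of 0.26; Zfp42 was at −0.73 and Tdgf1 at −0.13. The 2 of them with known reads, Pou5f1 and Esrrb, summed to 1728 in the control library of day 6 and 5825 in the knockdown library, against medians of 3889 and 1058 over the other days. Their part in the low ratios of day 6 was not tested. Hprt was low in the library labelled HPRT knockdown on that day too, but whether the day 6 cultures or RNA pools differed from those of other days in some other way was not tested, and the day 6 ratios may not compare the lines as the others do. With day 6 kept in the fit, the same number of members, 8, differed between the lines.

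Levels can be compared between genes once they are divided by the length of the exons, and this was possible for 8 of the 10. In the control line the median normalized reads per kilobase were 1317 for Gja1, 427 for Slc1a3, 264 for Aldoc, 178 for Aldh1l1, 157 for Aqp4, 118 for Slc1a2, 36.8 for S100b and 6.78 for Gpr37l1. The range of Gja1 over 9 days lay above that of Slc1a3, and the ranges of all other neighbours in this order overlapped. In the knockdown line the order of the medians began with Aldoc at 959.5, followed by Gja1 at 768, Slc1a3 at 629, S100b at 525, Aqp4 at 508, Aldh1l1 at 443, Slc1a2 at 227 and Gpr37l1 at 108, and here the ranges of all neighbours overlapped. By its median S100b stood below Slc1a2 in the control line and above it in the knockdown line, but the control range of S100b, 5.11 to 397 per kilobase, enclosed that of Slc1a2, 67.5 to 142.

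**Figure D4:**
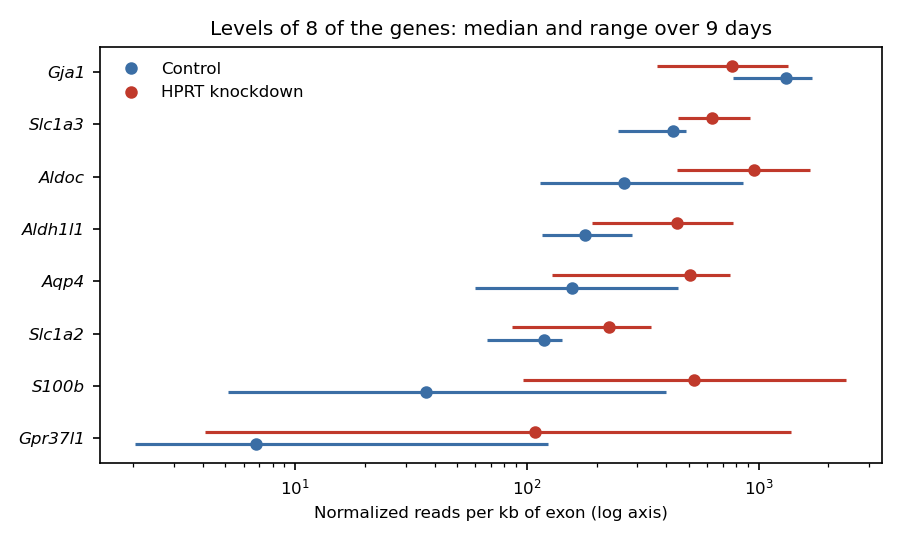
Normalized reads per kilobase of exon (log axis) of the 8 genes with known reads, as the median (point) and the range (line) over 9 days in the control line (blue) and the HPRT knockdown line (red). Gja1 is the gene whose median is lower in the knockdown line, 768 against 1317, and S100b and Gpr37l1 have the widest ranges.

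Other astrocyte genes were read from a list of 32, of which 30 were tested; Cldn10 and Ntsr2 did not reach the level. In the knockdown line 25 were higher and 1 was lower, where 26.2 percent of all genes tested were higher and 26.3 percent lower. The median mean log2 ratio was 1.42. Kcnj10, an inward rectifier potassium channel found in astrocytes, had the highest mean (2.85 ± 0.36, 7.19-fold, limma adjusted p = 0.00024), before Slc14a1, a urea transporter (2.64 ± 0.36, 6.23-fold, limma adjusted p = 0.00035). The log2 ratio of Kcnj10 was called rising with the day (slope 0.18 ± 0.050, limma adjusted p = 0.0412). It was the 1 rising gene of the 30, and 3 were falling, where 7.44 and 6.61 percent of all genes tested were. Dio2, which activates thyroid hormone, was the gene that was lower (−0.73 ± 0.28, limma adjusted p = 0.0479), a call lost without any of 7 days (limma adjusted p from 0.051 to 0.106). The amino acid transporter Slc7a10 had a mean log2 ratio of −0.33 ± 0.38 and was not called (limma adjusted p = 0.475). The ratio was above 0 on all 9 days for 21 of the 30, and for 14.1 percent of all genes tested. On day 6 it was below 0 for 21 of the 30, with a median of −0.49, where it was below 0 for 6741 of all 13619 genes tested, with a median of 0.

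**Figure D5:**
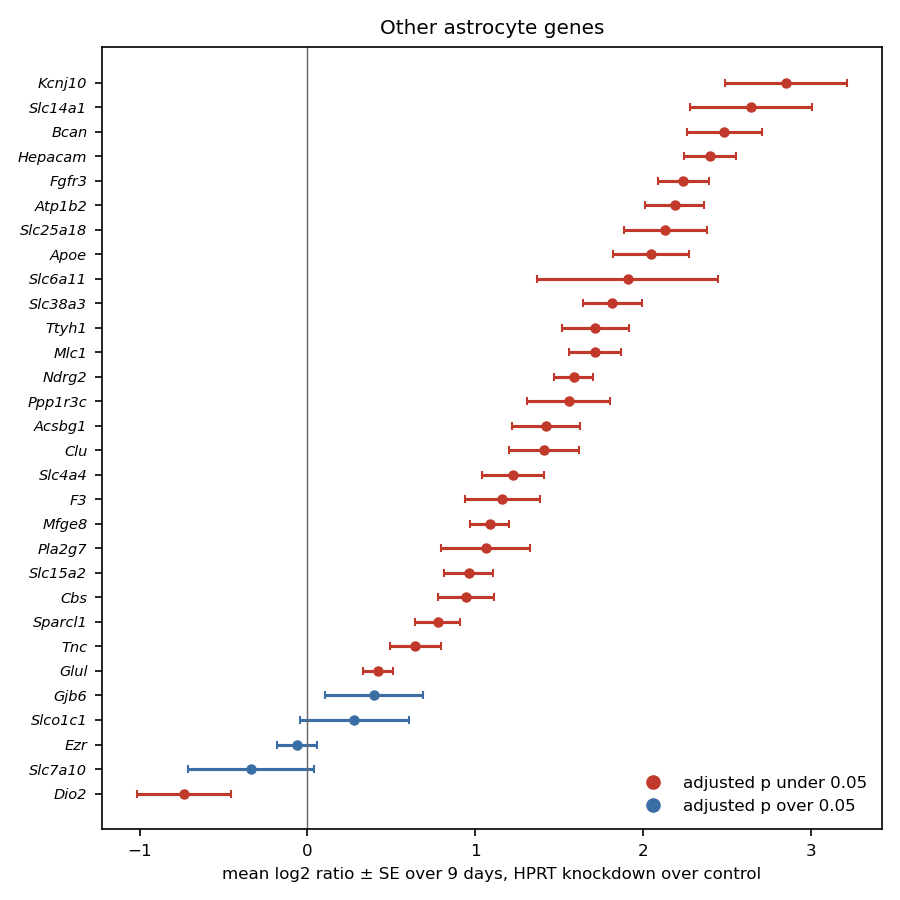
Mean log2 ratio of the HPRT knockdown over the control line with its SE over 9 days for the 30 other astrocyte genes tested, in order of the mean. The 25 genes that were higher (red) run from Glul at 0.42 to Kcnj10 at 2.85, and Dio2, at −0.73, is the red point below 0.

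Genes of radial glia and neural progenitors were less uniform. All 15 were tested, and 8 were higher and 2 lower in the knockdown line. That was 10 of 15, where 52.5 percent of all genes tested differed. The median was 0.52. Ptprz1, a receptor phosphatase of radial glia, was the highest (3.49-fold, limma adjusted p = 1.1e-05), followed by the cortical patterning factor Emx2 (1.12 ± 0.17, limma adjusted p = 0.00064). Pax6, a transcription factor of neurogenic radial glia, was lower on all 9 days (−1.36 ± 0.23, limma adjusted p = 0.00089), and so on 8 of 9 days was the Notch target Hes5 (−0.99 ± 0.31, limma adjusted p = 0.0219).

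Among 31 genes of gliogenic signalling, all tested, 16 were higher and 2 lower, with a median of 0.52. That was 18 of 31, where 52.5 percent of all genes tested differed. Fgfr3, a receptor of astrocyte precursors that is also on the astrocyte list, was the highest (2.24 ± 0.15, limma adjusted p = 1.5e-05) and Nfix, an NFI factor, came next (1.47 ± 0.19, limma adjusted p = 0.00028). Stat3, which carries cytokine signals to the Gfap promoter, was higher on all 9 days (0.98 ± 0.065, limma adjusted p = 1.3e-05). Hes5 and the Notch partner Rbpj (−0.50 ± 0.087, limma adjusted p = 0.0011) were the lower genes.

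Reactive astrocytes are those that respond to injury, and of 12 of their genes 11 were tested, without Cxcl10. The counts were 4 higher and 2 lower, with a median of 0.29. That was 6 of 11, close to the 52.5 percent of all genes tested that differed. Serpina3n, a protease inhibitor, was the highest (1.86 ± 0.69, limma adjusted p = 0.0434), though not called without day 3, 8, 10, 12 or 14 (limma adjusted p from 0.0813 to 0.0945), and Cp, the copper protein ceruloplasmin, was next (0.94 ± 0.25, limma adjusted p = 0.0099; 0.111 with no pairing by day). Steap4, a metalloreductase, was the lowest (−2.31 ± 0.39, limma adjusted p = 0.000985), while the secreted iron-binding protein gene Lcn2 had −1.41 ± 0.62 and was not called (limma adjusted p = 0.0802), except without day 12 (limma adjusted p = 0.0373).

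Markers of other cells went in different directions. Of all genes tested, 26.2 percent were higher in the knockdown line and 26.3 percent lower. Of 9 neuronal markers tested 6 were lower and none higher, with a median of −1.21. The neurofilament gene Nefl was the lowest (−2.85 ± 0.39, limma adjusted p = 0.00035), before Stmn2, which encodes a microtubule regulator (−2.01 ± 0.30, limma adjusted p = 0.00056), and Gap43, a growth cone protein, was at 0.03 ± 0.15 (limma adjusted p = 0.873). Tubb3, a neuronal tubulin, was at −1.88 ± 0.30 (limma adjusted p = 0.0007) and Map2 at 0.35 ± 0.14, not called (limma adjusted p = 0.0571), but called without day 8 (limma adjusted p = 0.0223) and with a minimum log2 level of 8 (limma adjusted p = 0.044). The 4 neuronal genes with known reads summed to 6252 to 14375 normalized reads in the control line and 1400 to 7395 in the knockdown line.

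All 6 pluripotency markers were lower on each of the 9 days, where 15.2 percent of all genes tested were, and their median was −2.81. Markers of undifferentiated cells and of neurons were thus both lower in the line with more RNA of astrocyte genes. Of 3 ependymal markers tested 1 was higher, the cilium factor Foxj1 (1.52 ± 0.29, limma adjusted p = 0.0018), and their sums ran from 90.7 to 260 in the control line and from 239 to 602 in the knockdown line. Of 6 endothelial markers 1 was higher and 2 lower, Pecam1 among the latter (−1.70 ± 0.58, limma adjusted p = 0.0306; 0.0576 to 0.067 without day 2, 10 or 12), with sums of 182 to 704 and 255 to 583 over 3 genes. The fibroblast markers, which the feeder cells would carry, had 2 of 8 lower and none higher, and Col1a1 was at 0.18 ± 0.33 (limma adjusted p = 0.671). Schwann cell and neural crest markers had 1 of 6 lower. The ratio was called rising with the day for 1 of these 6, where 7.44 percent of all genes tested were. None of 7 microglial markers reached the level for testing, and 4 of them had any reads. The part of these cells in the values of the 10 genes was not tested.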

How the data were processed

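Per the labels and the study's methods, total RNA was made into unstranded TruSeq libraries and read for 50 cycles, and the authors aligned the reads to NCBI37/mm9 with ELAND in CASAVA 1.8.2 and normalized counts per gene with DESeq in Avadis NGS. The 28 deposited tables hold log2 normalized values of 2 libraries each, which the authors had centred on the average of that pair; no totals are given, so the depth of each library is unknown beyond its size factor. The tables were tied together by least squares over the 27 that close on each other (12400 genes within 1e-05 log2); the control table of days 3 and 4 differs from what the others imply and is used only in the trends of single lines. Size factors were the median of ratios over genes. Values came in steps of 1/49 of a read, which gave back the reads of 8 of the 10 genes, with 53 of their 160 library values within 0.001 of whole reads; intervals cover counting error only. Which lane held which library was not stated, so lanes and lines cannot be told apart. Without strand, reads from a gene and an antisense partner cannot be told apart.

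The mean ratio over 9 days, its slope on the day and the trend within each line were tested with limma 3.58.1 in R 4.3.3, two-sided, with Benjamini-Hochberg adjustment over all 13619 genes tested and a threshold of 0.05; scripts were tested on simulated data. Each library was paired with the other of its day. The deviations of same-day libraries from their line's mean, over all genes tested, correlated at −0.011 to 0.459 without day 6, over 0.1 on 8 of those 9 days, and at −0.21 on day 6. The 10 genes, the marker lists and the tests were chosen with earlier results of these data known. Named besides the 10 genes are Hprt, the genes with the 2 highest and 2 lowest means of each glial list and of the oligodendrocyte and neuronal markers, defining markers of the other cell types, and the 5 genes most like the members; Stat3, Cnp and Glul were named after their values were seen. Single values of 2 marker genes are not reported here. Positions of genes and exon lengths come from the GENCODE annotation of NCBIM37, promoters from RefSeq.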

Additional observations from a re-analysis of the deposited data

Results flagged for a closer look

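The difference between the lines changed over the days for S100b and Gpr37l1, by a test of the slope of the ratio itself. The log2 ratio rose by 0.52 per day for S100b (limma adjusted p = 0.0263) and by 0.78 per day for Gpr37l1 (limma adjusted p = 0.0225). Both calls rested on single days. Neither gene was called without day 0 or without day 12 (limma adjusted p from 0.0574 to 0.0712), nor was S100b without day 1 (0.0589). The knockdown library was the higher of the pair on 8 of 9 days for S100b and on 6 of 9 for Gpr37l1. With day 3 left out as well as day 6 and the slope taken on log2(day + 1), an alternative chosen after seeing the data, 2 members were still called. A value far from the others was looked for in 30 sets of 10 values, the ratios and the levels of both lines of each gene, and 0 were found, where chance would give about 1 in 20.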

How the results depend on the processing

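The 8 members that differed between the lines were called under each of the 16 alternatives, and so were 22 to 26 of the other astrocyte genes; with no replicate block, the pairing by day dropped, these counts were 8 and 24. Raising the minimum log2 level to 8 left 1 member with a changing ratio, where Gpr37l1 was no longer tested. A slope on log2(day + 1) gave 4 members in the control line and 1 in the knockdown line. Leaving out 1 day at a time gave 0 to 2 members for the ratio, 2 to 4 in the control line and 1 to 3 in the knockdown line. Of all genes, 1913 had a changing ratio, and 1068 with day 6 kept, 607 to 1657 without single days and 1063 without day 3 on log2(day + 1); 5941 had a trend in the control line and 3932 on log2(day + 1); 1787 had one in the knockdown line, 129 on log2(day + 1) and 170 to 2964 without single days. With levels joined without the control table of days 3 and 4, chosen after seeing the data, 2 and 3 members had a trend in the control and knockdown lines; rising calls among all genes in the control line numbered 2910 against 2722 falling, where they were 2685 against 3256. Genes that were not called changed sign without single days: Mobp ran from −0.36 to 0.75, Mog from −0.0024 to 0.68, Gap43 from −0.068 to 0.11, Prx from −0.0066 to 0.15, Rsph1 from −0.0003 to 0.39 and Col1a1 from −0.0065 to 0.39. The cause was not tested. With 5 to 11 reads in the control libraries of the middle days, and 9 to 25 in the knockdown libraries of days 0, 1, 2 and 4, ratios of Gpr37l1 are limited by depth.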

Other observations

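The genes whose ratio over the 10 days was most like the median ratio of the 10 members, by Pearson's r over these 10 same-day pairs, were Lamp1, a lysosomal membrane protein (0.963), Lats2, a kinase of the Hippo pathway (0.942), Ndrg2, itself an astrocyte gene of the list above (0.941), the gene listed as 8-Mar with the Entrez number 71779 (0.935) and Tm9sf4 (0.931). The values share their libraries, and the ratio of day 6 lies apart from the others for most of them: the median of the members was −0.62 on that day and the ratio of Lamp1 was −0.22, while on the other days they lay between 0.36 and 1.88 and between 0.26 and 0.73.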
